A study of Mus musculus with 10 samples.

Results

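The genes described are 9 complement regulators and receptors, Cfd, Cfp, Cfi, Cd55, Cd59a, Serping1, Masp1, C3ar1 and C5ar1, taken as the lines of the count table that carry these symbols. All 9 were present among 55453 gene symbols, and 8 of the 9 passed the filter on low counts that kept 14614 genes, the exception being Cfi. RNA from the aortae of 10 male C57BL/6 mice was sequenced, 5 young mice aged 14.5 weeks and 5 old mice aged 92.5 weeks, with 1 library per mouse. The fat around each aorta had been removed, both age groups were killed at the same time, and the comparison asks how gene expression in the vessel differs with age. The total count on genes was 19640401 to 22886153 per library and did not separate the groups (exact permutation test, two-sided, p = 0.754).

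Complement is a set of plasma proteins, receptors and inhibitors through which tissue and immune cells mark particles and damaged cells for removal. Serine proteases cut the central components C3 and C5 in a cascade, soluble and membrane-bound regulators restrain it on host cells, and the small fragments released act on receptors of myeloid cells. In a vessel wall, the proteins come from plasma and also from resident macrophages, fibroblasts, smooth muscle cells and, for factor D, fat cells.

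The tissue label was compared with cell type markers. The 10 smooth muscle markers, led by Acta2, summed to 937738 ± 68199 normalized counts in the 5 young aortae and to 893669 ± 64038 in the 5 old ones (mean ± SD), far above every other list of markers. Normalized counts are read counts divided by a size factor that evens out depth between libraries. Markers of fat cells, macrophages, fibroblasts and endothelium were also present, and the most abundant fat cell marker, Car3, reached 16004 normalized counts in 1 young aorta.

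Of the 8 tested members, 2 were called higher in old aortae, Cfp and Serping1, and none was called lower, where a call is an adjusted p below 0.05 in edgeR's quasi-likelihood test over all tested genes. Over all tested genes 11.5% were called, 6.48% higher and 4.99% lower. At an unadjusted p below 0.05 the count was 6 of 8 members, against 26.7% of all genes. In 3 of 8 members, Cfp, Serping1 and Cd59a, the values of the groups did not overlap, against 9.92% of all tested genes (5.37% higher and 4.55% lower). DESeq2, another test for counts, called 6 members against 15.8% of all genes, 4 higher (Cfp, Serping1, C3ar1 and C5ar1) and 2 lower (Cfd and Cd59a), while limma-voom called 2 higher and 0 lower against 11.3% of all genes. The number of members called by edgeR was 4 without young replicate 1, where 16.1% of all genes were called. It was 1 without young replicate 3 (10.2% of all genes), young replicate 4 (7.67%) or old replicate 4 (9.79%). The median log2 fold change (old over young) of the 8 members was 0.18, and that of all tested genes was 0.0034.

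**Figure D1:**
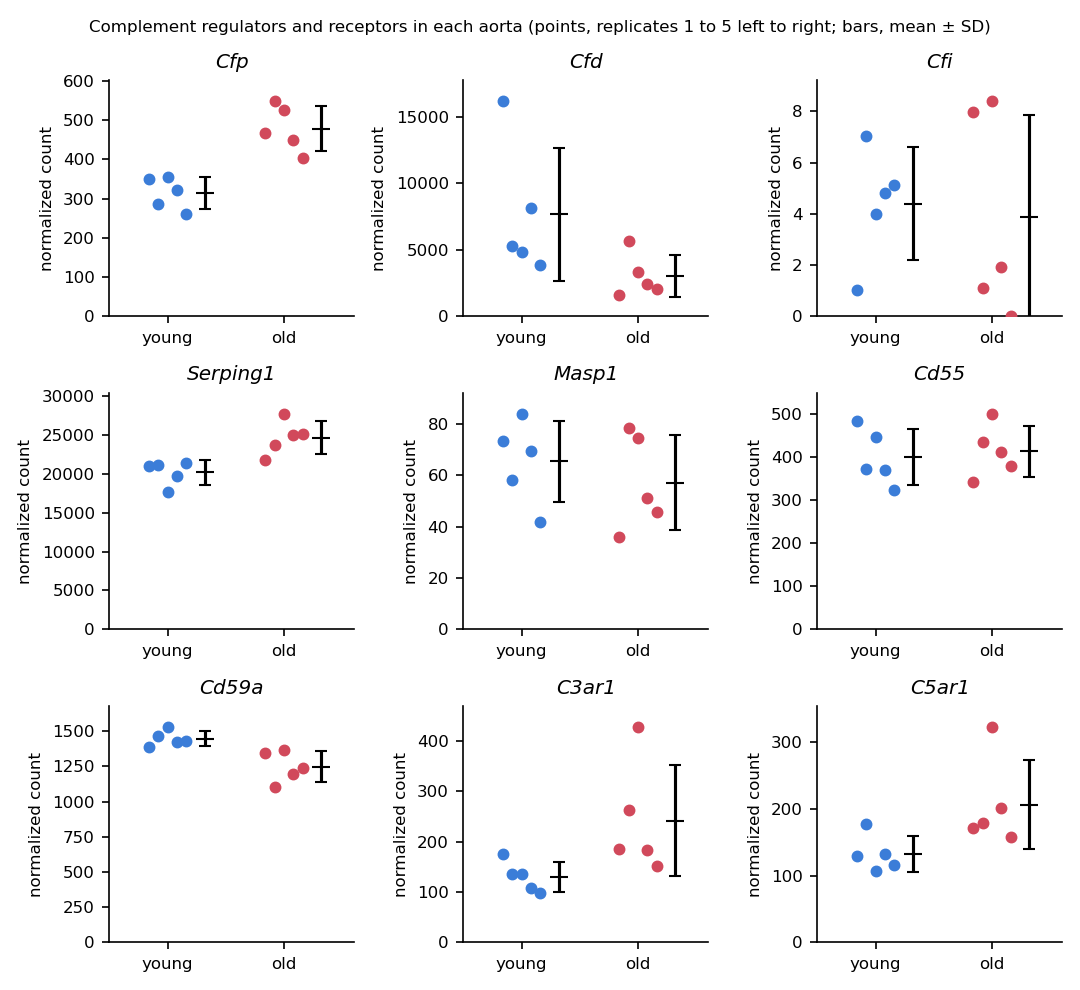
Normalized counts of the 9 members in each aorta, with 5 young and 5 old mice (points, replicates 1 to 5 from left to right) and the mean ± SD beside each group; each vertical axis starts at 0. All 5 old values lie above the young values for Cfp and Serping1 and below them for Cd59a, and the other 6 members overlap between the groups.

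The alternative pathway, a loop that amplifies C3 cleavage, uses the protease factor D and the stabilizer properdin. Cfp, which encodes properdin, lies on the X chromosome (chrX:20925454-20931555, minus strand, GRCm38). Its normalized counts were 349, 286, 354, 323 and 261 in young replicates 1 to 5 and 466, 547, 526, 448 and 404 in old replicates 1 to 5. All old aortae were above all young aortae, and old replicate 2 was the highest. Cfp was 1.53-fold higher in old aortae (log2 fold change 0.61, SE 0.11, edgeR adjusted p = 0.00282), and it was called in all 19 alternative settings, which are other tests, scalings, filters and the omission of mice.

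Cfd encodes factor D, also named adipsin, a protease that cuts factor B and is made mainly by fat cells (chr10:79890853-79892655, plus strand). Its normalized counts were 16144, 5320.2, 4870.5, 8176 and 3859.7 in young replicates 1 to 5 and 1631, 5628, 3361, 2432 and 2096 in old replicates 1 to 5. Young replicate 1 was far above the rest, old replicate 2 lay within the young range, and the other 4 old aortae were below every young one. The log2 fold change was -1.33 (SE 0.47, edgeR adjusted p = 0.105), so that Cfd was not called. Without young replicate 1 the log2 fold change was -0.87. DESeq2 gave an adjusted p of 0.0394, and over the 19 alternatives the adjusted p ranged from 0.0394 to 0.240. Among mice of 1 group Cfd varied more than any other tested member, with a coefficient of variation of 65.1% in young and 52.3% in old aortae.

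Values of fat cell markers are given beside those of Cfd. The 10 adipocyte markers, led per kilobase by Car3 and with none at 0, summed to 43690.0, 13650, 15491, 23878 and 14732 normalized counts in young replicates 1 to 5 and to 9826, 19416, 13895, 12014 and 12661 in old replicates 1 to 5. The same young replicate 1 was highest for the sum as for Cfd, and old replicate 1 was lowest for both. None of the 10 markers was called by edgeR, with 5 of 10 at an unadjusted p below 0.05, and DESeq2 called 2 lower and limma-voom 0. The old over young ratio of the sums was 0.609 (exact permutation p = 0.151, adjusted over 10 lists 0.251), and 0.801 without young replicate 1. After the group means were removed, Cfd and the adipocyte sum correlated over the 10 mice (Pearson r = 0.94, exact permutation p = 0.000764, adjusted over 80 pairs of member and list 0.0528; Spearman rho = 0.85, p = 0.00708, adjusted 0.0944). The coefficient was 0.91 without young replicates 1 and 4, the 2 mice farthest from the median sum. Coefficients of Cfd with other lists are given below. The pair passed the threshold with CPM, counts scaled by library size only, in place of normalized counts (adjusted p = 0.0278) and not with the mean of log2 marker values (0.0991). Cfd stood at 33.6% ± 5.0 (SD, n = 5) of the adipocyte sum in young and 21.3% ± 5.3 (SD, n = 5) in old aortae (exact permutation p = 0.0159, adjusted over 4 such ratios 0.0635). This percentage depends on the markers summed. The old over young ratio of means was 0.395 for Cfd, 0.448 for Car3, 0.455 for Retn, 0.465 for Plin1, 0.486 for Cidec and 0.496 for Adipoq. It was 0.557 for Lep, 0.653 for Lipe, 0.720 for Fabp4, 0.920 for Pnpla2 and 1.04 for Ucp1. Fabp4 and Pnpla2 had means of 4380 and 2747 in old aortae, where the sum averaged 13563. The part of fat cell content in the Cfd values was not tested. In bulk samples, fewer cells of a type and less RNA per cell cannot be told apart.

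Soluble regulators act on the cascade in fluid. Serping1 encodes the C1 inhibitor, which blocks the proteases C1r and C1s and the lectin pathway proteases (chr2:84765387-84775444, minus strand). Its normalized counts were 20972.5, 21103, 17631, 19677 and 21389.6 in young replicates 1 to 5 and 21739, 23714, 27599.5, 24992 and 25098 in old replicates 1 to 5. Every old aorta lay above every young one, with the smallest gap between young replicate 5 and old replicate 1, and old replicate 3 was highest. Serping1 was 1.23-fold higher in old aortae (log2 fold change 0.30, SE 0.08, edgeR adjusted p = 0.0244). It was called in 14 of 19 alternatives, with an adjusted p from 0.0025 to 0.0656, and not without young replicate 3, young replicate 4, old replicate 3, old replicate 4 or old replicate 5.

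Cfi encodes factor I, a protease that inactivates C3b and C4b and is made mainly by the liver (chr3:129835884-129875332, plus strand). Its read counts were 1, 7, 4, 5 and 5 in young and 8, 1, 9, 2 and 0 in old aortae. The sums were 22 reads in young and 20 in old aortae, with exact 95% Poisson intervals of 13.8 to 33.3 and 12.2 to 30.9 that cover counting error only. With no low-count filter, the log2 fold change of Cfi was -0.16 (SE 0.66, edgeR adjusted p = 0.930), and a difference between the groups was not detectable at this depth.

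Membrane regulators protect the cells that carry them. Cd59a encodes a lipid-anchored protein that blocks the assembly of the membrane attack complex (chr2:104095801-104115354, plus strand). Its normalized counts were 1386, 1469, 1526.5, 1426 and 1431 in young replicates 1 to 5 and 1344, 1105, 1365, 1194.5 and 1236 in old replicates 1 to 5. All old values lay below all young values, the young ones within a narrow range with a coefficient of variation of 3.65%. The log2 fold change was -0.21 (SE 0.06, edgeR adjusted p = 0.0554), just above the threshold, and over the alternatives the adjusted p ranged from 0.0215 to 0.112. It was called with DESeq2 (0.0230), with DESeq2 size factors in edgeR (0.0482), and without young replicate 1, old replicate 1 or old replicate 3. Of its 50-base windows, 3.87% also occur in transcripts of other genes, most often Cd59b, so that a small share of its reads could be assigned to either gene.

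Cd55 encodes decay-accelerating factor, which takes apart the enzymes that cut C3 and C5 (chr1:130439027-130462744, minus strand). Its normalized counts ranged from 324 to 485 in young and from 342 to 499 in old mice, so that the groups overlapped widely. The estimated log2 fold change was 0.06 (SE 0.12, edgeR adjusted p = 0.813), and its sign changed when young replicate 5 or old replicate 3 was left out. Of its 50-base windows, 9.12% occur in other genes, most often Cd55b, which had at most 0.966 normalized counts in any library, and an opposite-strand gene covers 2.10% of its exonic bases.

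Masp1 encodes a protease of the lectin pathway, and a splice form of its transcript encodes the enzyme that activates factor D (chr16:23449417-23520815, minus strand). Its normalized counts ranged from 42.0 to 83.8 in young and from 36.0 to 78.5 in old mice. The estimated log2 fold change was -0.19 (SE 0.24, edgeR adjusted p = 0.674), and no alternative called it.

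The anaphylatoxin receptors C3ar1 and C5ar1 are G protein-coupled receptors for the fragments C3a and C5a and are carried mostly by myeloid cells. C3ar1 (chr6:122847138-122856161, minus strand) had normalized counts of 175, 136, 137, 107 and 98.4 in young replicates 1 to 5 and 185, 263, 427, 184 and 152 in old replicates 1 to 5. Old replicate 3 was highest, and 4 of the 5 old aortae lay above the highest young one. The log2 fold change was 0.90 (SE 0.28, edgeR adjusted p = 0.0611), and C3ar1 was not called. Without old replicate 3 the log2 fold change was 0.59. DESeq2 gave an adjusted p of 0.00761, and over the alternatives it ranged from 0.00761 to 0.173.

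C5ar1 (chr7:16246743-16259540, minus strand) had normalized counts of 129.8, 178, 107, 132 and 116 in young replicates 1 to 5 and 172, 179.8, 322, 201 and 157.5 in old replicates 1 to 5. Old replicate 3 was again highest, young replicate 2 lay within the old range, and 3 of the 5 old aortae were above the highest young one. The log2 fold change was 0.65 (SE 0.20, edgeR adjusted p = 0.0561), and C5ar1 was not called. Without old replicate 3 the log2 fold change was 0.43. DESeq2 gave an adjusted p of 0.0184, and over the alternatives it ranged from 0.0184 to 0.121.

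Values of macrophage markers are given beside those of both receptors and of Cfp. The 10 macrophage markers, led by Lyz2 and with none at 0, summed to 11124, 12403, 10968, 11728 and 10569.8 normalized counts in young replicates 1 to 5 and to 13803, 14625, 20679, 14146 and 12339.6 in old replicates 1 to 5. Old replicate 3 stood out here as it did for C3ar1 and C5ar1. Of the 10 markers edgeR called 4 higher, Adgre1, Cd68, Fcgr1 and Cd86, against 6.48% of all tested genes. At an unadjusted p below 0.05 there were 8 of 10, against 26.7% of all genes. DESeq2 called 7 higher and limma-voom 4, and no test called any lower. The ratio of the sums was 1.33 (exact permutation p = 0.0159, adjusted over 10 lists 0.0529). The sum passed the threshold without old replicate 2 (adjusted p = 0.0397), without old replicate 5 (0.0265) and with CPM (0.0265), and over 11 alternatives the adjusted p ranged from 0.0265 to 0.119. With the group means removed, the macrophage sum correlated with C5ar1 (Pearson r = 0.92, exact permutation p = 0.00132, adjusted over 80 pairs 0.0528; Spearman rho = 0.85, p = 0.0041, adjusted 0.0667), and r was 0.86 without old replicates 2 and 3. This pair, too, passed with CPM (adjusted p = 0.0278) and not with the mean of log2 marker values (0.0991). For C3ar1 Pearson r was 0.83 (exact permutation p = 0.0207, adjusted 0.154; Spearman rho = 0.77, p = 0.0228, adjusted 0.166), and r was 0.33 without old replicates 2 and 3, so that the relation rested on those mice. For Cfp Pearson r was 0.44 (exact permutation p = 0.222, adjusted 0.444; Spearman rho = 0.44, p = 0.211, adjusted 0.437), and 0.20 without the same mice. The part of macrophage content in the values of Cfp, C3ar1 and C5ar1 was not tested.

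Of the 80 pairs of member and list, 16 had an unadjusted p below 0.05 for Pearson r and 0 had an adjusted p below 0.05, while 3 did with CPM and 0 with the mean of log2 marker values. The third of these 3, besides the pairs of Cfd and C5ar1 above, was Cd55 with the lymphocyte sum (Pearson r = 0.91, exact permutation p = 0.00201, adjusted 0.0537; Spearman rho = 0.89, p = 0.00257, adjusted 0.0667). Its r was 0.97 without young replicate 2 and old replicate 3, and its adjusted p was 0.0278 and 0.0833 in the 2 alternatives. The same member had r = -0.74 with smooth muscle (p = 0.0298, adjusted 0.183, rho = -0.85, p = 0.00417, adjusted 0.0667), and -0.85 without young replicate 1 and old replicate 2. By Spearman rho 1 pair passed, Masp1 with the smooth muscle sum (rho = -0.89, p = 0.000486, adjusted 0.0389; Pearson r = -0.75, exact permutation p = 0.0135, adjusted 0.154), and r was -0.82 without young replicate 1 and old replicate 2. Masp1 with lymphocytes had r = 0.74 (p = 0.0200, adjusted 0.154, rho = 0.87, p = 0.00382, adjusted 0.0667), and 0.76 without young replicate 2 and old replicate 3. The lymphocyte sum was low, at 22.1 to 124 normalized counts in young and 63.0 to 459 in old mice, and 5 of its 10 markers passed the low-count filter.

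Besides fat cell markers, Cfd had r = -0.83 with smooth muscle (exact permutation p = 0.00965, adjusted 0.154; Spearman rho = -0.70, p = 0.0429, adjusted 0.226) and 0.64 with neutrophils (p = 0.0321, adjusted 0.183, rho = 0.44, p = 0.170, adjusted 0.377). These fell to -0.31 without young replicate 1 and old replicate 2, and to 0.24 without old replicates 2 and 3. C3ar1 had r = 0.79 with lymphocytes (p = 0.0137, adjusted 0.154, rho = 0.72, p = 0.0331, adjusted 0.204), and 0.81 without young replicate 2 and old replicate 3. Cd59a had r = 0.65 with mesothelium (p = 0.0109, adjusted 0.154, rho = 0.77, p = 0.0176, adjusted 0.153), whose markers summed to 11.2 to 55.8 normalized counts per mouse, and -0.54 with fat cells (p = 0.0376, adjusted 0.201, rho = -0.54, p = 0.0833, adjusted 0.266). Without the 2 farthest mice these were 0.70 (young replicates 1 and 3) and -0.63 (young replicates 1 and 4). For Cfp, 3 pairs had an unadjusted p below 0.05, none of them with macrophages. They were r = -0.76 with smooth muscle (exact permutation p = 0.0201, adjusted 0.154; Spearman rho = -0.78, p = 0.0191, adjusted 0.153), 0.69 with lymphocytes (p = 0.0437, adjusted 0.219, rho = 0.70, p = 0.0435, adjusted 0.226) and 0.68 with neutrophils (p = 0.0312, adjusted 0.183, rho = 0.70, p = 0.0188, adjusted 0.153). These 3 were -0.69 without young replicate 1 and old replicate 2, 0.65 without young replicate 2 and old replicate 3, and 0.40 without old replicates 2 and 3. The neutrophil sum was low as well, at 29.9 to 47.0 normalized counts in young and 56.4 to 195 in old mice. Serping1 had r = 0.76 with the fibroblast sum (exact permutation p = 0.0211, adjusted 0.154; Spearman rho = 0.59, p = 0.0864, adjusted 0.266), and 0.87 without old replicates 1 and 2. Between the groups they moved in opposite directions, with an old over young ratio of 0.740 for the sum and a 1.23-fold rise for Serping1. The part of these cell types in the values of the members was not tested.

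Divided by the macrophage sum, Cfp, C3ar1 and C5ar1 had old over young ratios of 1.16, 1.34 and 1.16, and none differed between the groups past the threshold (exact permutation p adjusted over 4 ratios = 0.127 for each). The largest parts of that sum were Lyz2 (mean 3732.5 in young, 5451 in old aortae) and Mertk (3506 and 3569). Mertk hardly differed between the groups (log2 fold change 0.03, against a list median of 0.59), so that these ratios depend on the markers summed. Ratios without Mertk were not computed.

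**Figure D2:**
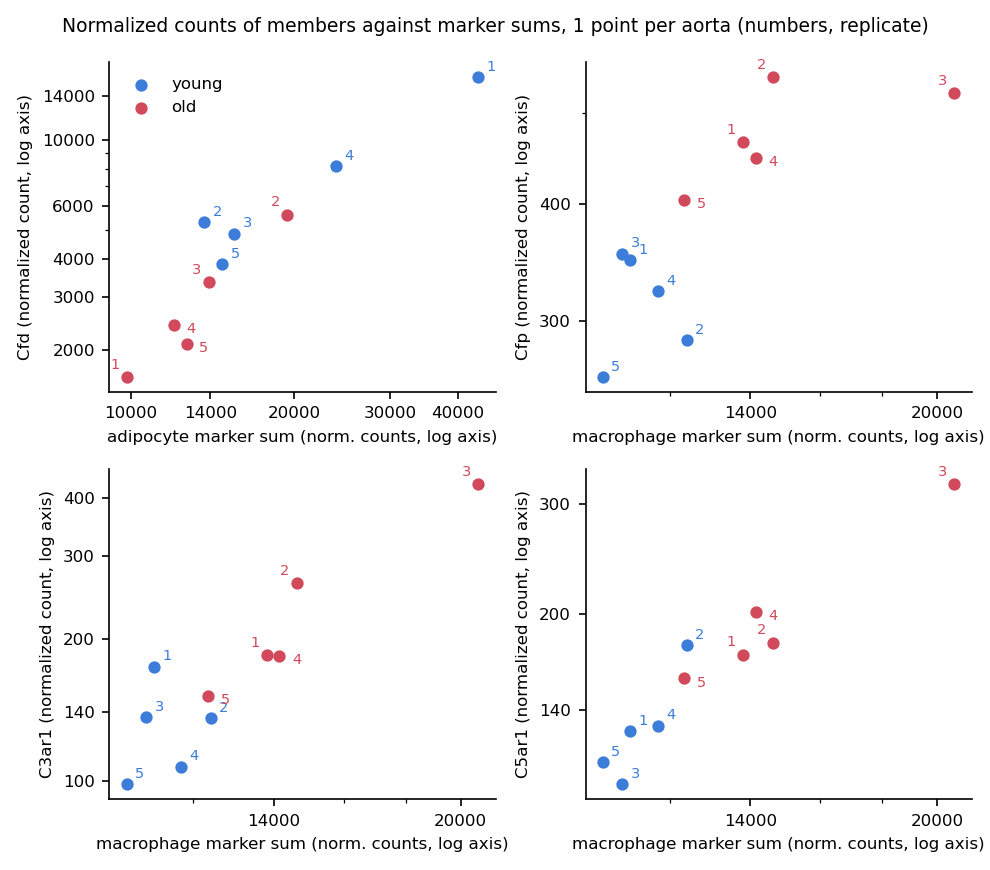
Normalized counts of Cfd against the summed adipocyte markers, and of Cfp, C3ar1 and C5ar1 against the summed macrophage markers, in each of the 5 young and 5 old aortae (numbers, replicate); all axes are log scaled. Young replicate 1 lies at the top right for Cfd and old replicate 3 at the right for the 3 other genes.

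The table of RefSeq promoters used here gave windows for 6 of the 9 members, Cfd, Cfp, Cd55, Cd59a, C3ar1 and C5ar1, and had no entry for Cfi, Serping1 and Masp1. Those of Cfp, C3ar1 and C5ar1, whose log2 fold changes are the highest among the 6, are printed from 250 bases before the start of transcription to 30 bases after it, with the letters of the searched motifs in capitals (RefSeq, GRCm38.p6). The windows lie at chrX:20931526-20931805, minus strand, at chr6:122856128-122856407, minus strand and at chr7:16259309-16259588, minus strand, and are written 5′ to 3′ on the strand of the gene.
Cfp: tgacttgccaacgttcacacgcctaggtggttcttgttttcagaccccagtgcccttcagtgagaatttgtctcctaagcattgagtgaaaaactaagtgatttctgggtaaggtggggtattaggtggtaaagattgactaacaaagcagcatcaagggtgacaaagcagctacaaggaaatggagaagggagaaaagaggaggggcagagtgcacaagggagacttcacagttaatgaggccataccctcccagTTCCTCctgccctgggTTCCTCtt
C3ar1: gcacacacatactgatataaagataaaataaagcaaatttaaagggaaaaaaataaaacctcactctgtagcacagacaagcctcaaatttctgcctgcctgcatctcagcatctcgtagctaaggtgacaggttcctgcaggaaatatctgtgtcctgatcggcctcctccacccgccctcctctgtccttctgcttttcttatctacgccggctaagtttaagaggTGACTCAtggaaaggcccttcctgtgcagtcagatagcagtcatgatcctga
C5ar1: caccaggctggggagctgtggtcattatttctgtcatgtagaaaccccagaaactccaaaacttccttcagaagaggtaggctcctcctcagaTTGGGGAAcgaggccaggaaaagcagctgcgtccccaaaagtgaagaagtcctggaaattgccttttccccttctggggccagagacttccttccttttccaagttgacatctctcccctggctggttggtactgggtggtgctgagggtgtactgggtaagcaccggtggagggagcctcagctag
Searched on both strands were GAGGAA, the core of PU.1 sites, TGANTCA, the AP-1 site, TTNNGNAA, a form of the C/EBP site, and TTCNNNGAA, the GAS element. The Cfp window held TTCCTC, the reverse of the PU.1 core, at bases 7 and 23 of the transcript. C3ar1 held TGACTCA 22 bases before the start site, and C5ar1 held TTGGGGAA 157 bases before it. The start sites here are those of RefSeq. GENCODE places the 5′ end of C5ar1 202 bases further upstream, so that this motif lies inside the gene by that annotation, and that of C3ar1 4 bases upstream, while the other 4 agree. Cd59a held GAGGAA 62 bases before its start, and the Cfd and Cd55 windows held none of the 4 motifs. Of 32817 windows of this length, 26.0% held the PU.1 core, 7.47% the AP-1 site, 39.2% the C/EBP form and 7.83% the GAS element. These matches describe letters in a window.

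Levels of different genes were compared as normalized counts per kilobase of exonic sequence. In young aortae the order of mean levels per kilobase was Serping1 (8669 ± 669), Cfd (8323 ± 5421), Cd59a (799.5 ± 29.2), Cfp (181 ± 23.1), Cd55 (82.3 ± 13.3), C5ar1 (51.6 ± 10.7), C3ar1 (30.3 ± 6.97), Masp1 (6.66 ± 1.62) and Cfi (1.98 ± 0.989; all SD, n = 5). Serping1 and Cfd overlapped in their ranges over mice, as did Cd55 and C5ar1, and no other neighbours did. In old aortae the same order of genes held, with Serping1 at 10593 ± 922 and Cfd at 3286 ± 1719 normalized counts per kilobase, which no longer overlapped. Overlapping neighbours in old aortae were Cd55 (85.1 ± 12.2), C5ar1 (80.4 ± 25.9) and C3ar1 (56.2 ± 25.8), and also Masp1 (5.81 ± 1.88) and Cfi (1.75 ± 1.80). Among 14516 tested genes with a length, Serping1 ranked 62nd per kilobase in young and 47th in old aortae, and Cfd 64th and 224th.

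The other genes of the pathway were taken from 4 lists, whose calls stand beside 6.48% of all tested genes called higher and 4.99% lower. Of 20 other regulators 11 were tested, of which 1 was called higher, Csmd1 (log2 fold change 1.09, SE 0.12, edgeR adjusted p = 0.0001), and 2 lower, Thbd (-0.34, SE 0.08, 0.0135) and Clu (-0.26, SE 0.06, 0.0201). Clu was not called without young replicate 4 (adjusted p = 0.0620) or old replicate 5 (0.0509), and over the 19 alternatives its adjusted p ranged from 0.000202 to 0.0620. Thbd encodes thrombomodulin, Clu encodes clusterin, an inhibitor of the attack complex that was the most abundant of the list per kilobase, and Csmd1 encodes a large membrane inhibitor. The median of the 11 was 0.01.

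Of 9 other receptors 8 were tested and 3 were called higher, against 6.48% of all tested genes, with a median log2 fold change of 0.79. They were Vsig4, a macrophage receptor for C3b (1.63, SE 0.31, edgeR adjusted p = 0.00525), C5ar2, the second receptor of C5a (0.88, SE 0.20, 0.0131), and Itgb2, the shared chain of complement receptors CR3 and CR4 (0.87, SE 0.21, 0.0216). Itgb2 was not called with no low-count filter (adjusted p = 0.0523), without young replicate 4 (0.0582) or without young replicate 5 (0.0536), and over the 19 alternatives its adjusted p ranged from 0.00111 to 0.0582. DESeq2 called 4 of the list higher and 1 lower. The most abundant receptor per kilobase, Calr, was not called (-0.05). Of the windows of C5ar2, 4.39% occur in the overlapping gene Gm26473. Of 8 lectin pathway genes 3 were tested and none was called by edgeR, with 1 at an unadjusted p below 0.05 and 1 called higher by DESeq2; the most abundant was Colec12 (0.10). Of 19 components 13 were tested, 8 were called higher and 0 lower, against 6.48% and 4.99% of all tested genes, with a median of 0.55. The 4 with the smallest p were C1s1 (log2 fold change 0.55), C2 (0.67), C3 (0.80) and C1ra (0.39), and C7, which exceeded C3 per kilobase in young but not in old aortae, was not called (-0.23). Counts of 3 of these are uncertain, since 35.1% of the 50-base windows of C1s1 also occur in other genes, most often C1s2, 50.8% of those of C1ra, most often C1rb, and 41.5% of those of C2, most often the overlapping gene Gm20547. C1s1 and C1ra encode the proteases that the C1 inhibitor blocks, and both were called higher, as Serping1 was.

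**Figure D3:**
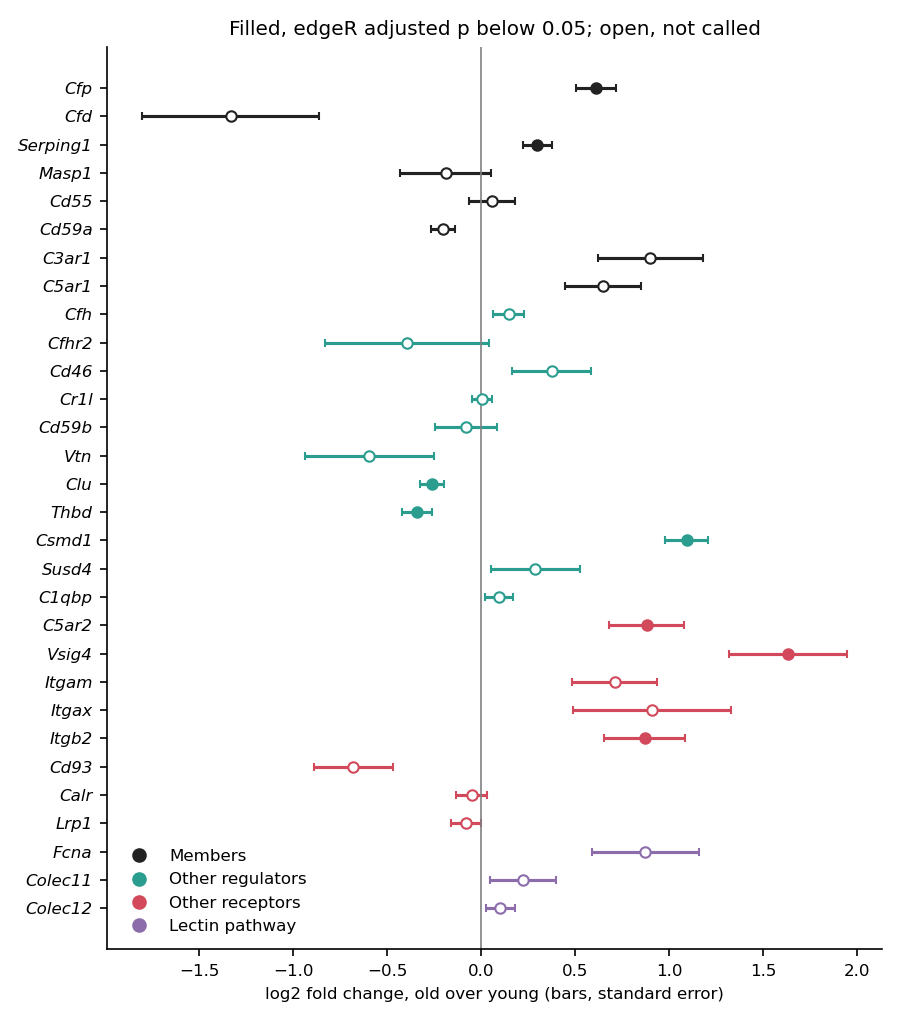
Log2 fold change (old over young, 5 mice each) of the 8 tested members and of the tested genes of 3 other complement lists, with the standard error as bars and filled points for genes called by edgeR. Cfp and Serping1 are filled among the members, and Cfd at -1.33 has the widest bar.

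Members were also compared with each other over the 10 mice after removal of the group means. Of 28 pairs, 3 had an adjusted p below 0.05 by Pearson r. Cd55 and Masp1 had r = 0.87 (exact permutation p = 0.00278, adjusted 0.0389; Spearman rho = 0.84, p = 0.00451, adjusted 0.0421), and r was 0.92 without young replicate 1 and old replicate 3. Cd55 and C3ar1 had r = 0.83 (exact permutation p = 0.00271, adjusted 0.0389; Spearman rho = 0.85, p = 0.00333, adjusted 0.0421), and r was 0.67 without the same mice. Cfp and Masp1 had r = 0.85 (exact permutation p = 0.00472, adjusted 0.0441; Spearman rho = 0.84, p = 0.00437, adjusted 0.0421), and r was 0.69 without young replicate 5 and old replicate 2.

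Among 11054 tested genes with a mean of at least 100 normalized counts, the genes whose deviations from the group means were most like those of each member over the 10 mice were named. For Cfd these were Cyp2e1 (Pearson r = 0.98) and Adipoq (0.98), the gene of the fat cell hormone adiponectin. For Cfp they were Mettl5 (0.93) and H2-K1 (0.93), and for Cd55 Tmem173 (0.98) and Ighm (0.97). Cd59a was closest to Cyb5r3 (0.93) and Mrpl19 (0.93), and Masp1 to Mcph1 (0.94) and Qdpr (0.94). For Serping1 they were Abca9 (0.98) and Fbln1 (0.95), the gene of fibulin-1. For C3ar1 they were Irf5 (0.96) and P2rx4 (0.95), and for C5ar1 Ctsb (0.96), the gene of the lysosomal protease cathepsin B, and Sulf2 (0.94). These are the highest of many coefficients and carry no test.

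**Figure D4:**
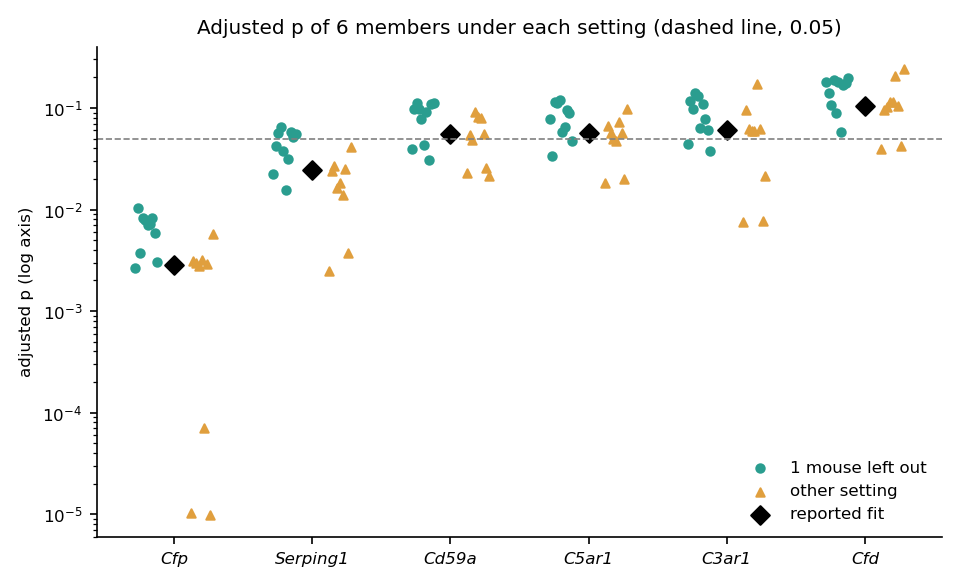
Adjusted p (log axis) of 6 members in the reported edgeR test (diamond), with 1 of the 10 mice left out (circles) and under the other settings (triangles); the dashed line marks 0.05. Cfp lies below the line in all settings, Serping1 in 14 of 19 alternatives, and Cd59a, C5ar1, C3ar1 and Cfd have points on both sides.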

How the data were processed

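Poly(A) libraries, which the labels describe as stranded, were made from 1 aorta per mouse. The authors trimmed the reads with fastp 0.20.0, aligned them to GRCm38 with STAR 2.7.0f and counted them per gene with featureCounts of Subread 1.6.4, per the submitters' processing notes. The deposited values are these counts as whole numbers, without normalization. The strand setting and the treatment of reads with several alignments are not given in the sources used here.

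Groups follow the labels. In R 4.3.3, filterByExpr of edgeR 4.0.16 removed genes of low count, and its quasi-likelihood test with a robust fit and TMM scaling compared old with young aortae, with no covariate. Benjamini-Hochberg adjustment ran over 14614 genes, and calls were made below 0.05. The standard error is the absolute log2 fold change divided by the root of F. Normalized counts used size factors of DESeq2 1.42.0. Lengths and positions came from GENCODE M21 on GRCm38, whereas the authors used a later release of the same build. Marker sums and ratios were tested by exact permutation of the mice (two-sided), whose smallest p with 5 against 5 mice is 0.0079. Correlations used log2 of normalized counts plus 1 with group means removed, and all 14400 arrangements of mice within groups.

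Alternatives were DESeq2, limma-voom (limma 3.58.1), 3 other scalings, 2 other filters, the replicate number as a block and the omission of each mouse. The named genes are the 9 members, up to 4 called genes with the smallest p and the most abundant gene of each pathway list, and the 2 genes most like each member. Members and lists were chosen with earlier results of these data known. The correlations between members, the ratios to marker sums, the motif search, DESeq2 on every gene with at least 1 count, and the omission of young replicate 1 and old replicate 3 together were chosen after values of these data were seen. The count tests were tested on simulated data. Within the groups, chi-square per degree of freedom between pairs of libraries was 8.06 to 58.8 over 20 pairs, where counting error alone gives about 1, so that no library was counted as a repeat of another.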

Additional observations from a re-analysis of the deposited data

Results flagged for a closer look

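In 8 of 68 groups of 5 values, the gap between an extreme sample and its neighbour took up more of the group's range than 0.710, the critical value of Dixon's test, which chance passes in about 1 of 20 groups. Old replicate 3 was the extreme sample in 5 of them. Its C5ar1 level was 322 normalized counts against 201 in the next old aorta (gap 0.733 of the range). Its C5ar2 level was 72.7 against 50.1 (gap 0.754), and its Itgb2 level was 429 against 252 (gap 0.756). In the same aorta the macrophage marker sum was 20679 normalized counts against 14625 in the next (gap 0.726), and the lymphocyte marker sum was 459 against 158 (gap 0.760). The part of these cell types in the C5ar1 value was not tested.

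Old replicate 1 had the lowest old C1s1 level, 5206.5 normalized counts against 6044.5 (gap 0.821). Young replicate 3 had the lowest fibroblast marker sum of its group, 201458 against 225338 normalized counts (gap 0.756). In old replicate 2, 11.0% of counts fell on mitochondrial genes against 6.51% in the next old aorta (gap 0.774).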

How the results depend on the processing

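Cfp kept its direction and its call in all 20 alternatives, and Masp1 was not called in any. The other tested members kept their direction except Cd55. With 1 mouse left out, log2 fold changes ranged from -1.69 to -0.87 for Cfd, 0.55 to 0.67 for Cfp, -0.02 to 0.14 for Cd55, -0.24 to -0.17 for Cd59a, 0.25 to 0.34 for Serping1, -0.33 to -0.06 for Masp1, 0.59 to 1.03 for C3ar1 and 0.43 to 0.77 for C5ar1. The sign of Cd55 turned without young replicate 5 (-0.01) and without old replicate 3 (-0.021). With 1 mouse left out, the number of members called ranged from 1 to 4, and the share of all genes called from 7.67% to 16.1%. Genes called lower numbered 474 when young replicate 4 was omitted and 1139 when young replicate 1 was, against 729 with all mice.

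DESeq2 called 6 members and 15.8% of all genes, with log2 fold changes of -1.34 for Cfd, -0.21 for Cd59a, 0.89 for C3ar1 and 0.64 for C5ar1. On every gene with at least 1 count, chosen after seeing the data, it also called 6 members and 8.30% of 28011 genes, with -1.34, -0.21, 0.89 and 0.64. Cd59a was called with DESeq2 size factors in edgeR (-0.21), and C5ar1 with upper-quartile factors (0.68) or scaling by library size only (0.68). With young replicate 1 and old replicate 3 both left out, also chosen after seeing the data, 4 members and 14.2% of all genes were called, among them Cd59a (-0.25) and C3ar1 (0.72). The cause of these changes was not tested.

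With the replicate number as a block, Serping1 was not called (0.30, edgeR adjusted p = 0.0917), Clu was not (-0.26, 0.0833), C3ar1 was (0.83, edgeR adjusted p = 0.0350), and 467 genes were called lower. The numbers did not pair the mice: same-numbered mice correlated at -0.29 to 0.13, and 2 of 5 matched best with their own number.

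With 1 mouse left out, the old over young ratio of marker sums ranged from 1.21 to 1.39 for macrophages, 0.543 to 0.801 (without young replicate 1) for fat cells, 2.00 to 2.93 for neutrophils, 0.716 to 0.768 for fibroblasts, 1.84 (without old replicate 3) to 4.09 for lymphocytes and 0.525 to 0.668 for endothelium. It ranged from 0.848 to 1.20 for blood, with a turned direction without young replicate 4 (0.909), young replicate 5 (0.984), old replicate 2 (0.848) or old replicate 5 (0.980). With CPM values the macrophage ratio was 1.36 (exact permutation test, adjusted p = 0.0265), and 3 pairs of member and list passed the threshold against 0, Cfd with adipocytes, C5ar1 with macrophages and Cd55 with lymphocytes (adjusted p = 0.0278 each). Counts limited Cfi most, with 0 to 9 reads per library.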

Other observations

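Marker lists not described above gave these old over young ratios of summed normalized counts, with exact permutation p adjusted over 10 lists. The neutrophil sum was higher in old aortae (ratio 2.64, adjusted p = 0.0397), but it reached only 37.6 ± 7.40 normalized counts in the 5 young aortae and 99.3 ± 59.6 in the 5 old ones (mean ± SD), and 1 of its 10 markers, Csf3r, passed the low-count filter and was called higher. The highest young sum was 47.0 and the lowest old sum 56.4. The sum did not pass when any 1 of the 5 young mice was left out (ratio 2.51 to 2.82, adjusted p 0.0926 to 0.132). It passed when any 1 of the 5 old mice was left out (lowest adjusted p 0.0265). With 4 against 5 mice, 1 list alone can reach no adjusted p below 0.0794, and the values without a young mouse lay above that floor. The cause of this loss was not tested. Neutrophils also make properdin, and the correlation of the neutrophil sum with Cfp did not pass the threshold after adjustment (r = 0.68, and 0.40 without old replicates 2 and 3). The part of these cells in the Cfp values was not tested. The fibroblast sum was lower in old aortae (ratio 0.740, adjusted p = 0.0397) and was 0.721 to 0.747 when any 1 of the 5 young mice was left out. The adjusted p was then 0.0794, the lowest that 1 list can reach alone with 4 against 5 mice, so that it says nothing about stability. The 2 collagens carried this difference, with Col1a1 at a mean of 58611 in the young group and 31070 in the old one (edgeR adjusted p = 0.00277) and Col3a1 at 76905 and 40179 (0.000241). Their fall was larger than that of the whole sum, from 224181 to 165831. Pi16 was also called lower and Lum higher. Among markers without a call, Cd34 (log2 fold change -0.23), Clec3b (-0.23) and Dpt (-0.07) were lower and Dcn (0.27), Pdgfra (0.13) and Ly6a (0.13) higher, and the list median log2 fold change was -0.15. The other lists did not pass the threshold: endothelium 0.609 (adjusted p = 0.0794, and 0.525 with 0.0265 without old replicate 2, within 0.0265 to 0.159 over 11 alternatives), smooth muscle 0.953 (0.417), mesothelium 0.596 (0.272), mast cells 0.888 (0.423), lymphocytes 3.01 (0.111) and blood 1.05 (0.905). Without old replicate 3 the lymphocyte ratio was 1.84, and of 5 tested lymphocyte markers Cd3g (log2 fold change 2.78, edgeR adjusted p = 0.0121) and Cd4 (1.95, 0.00269) were called higher. Of 10 endothelial markers edgeR called Tek lower, with 7 at an unadjusted p below 0.05, while DESeq2 called 6 lower and limma-voom 3. Among 5 tested mast cell markers 4 were called higher and Kit was called lower. The 4 higher ones, Cpa3, Mcpt4, Cma1 and Tpsb2, rose 1.89- to 2.31-fold. Kit fell from a mean of 682 to 362.5 normalized counts, within mean list sums of 888 in young and 788 in old aortae. The mast cell ratio of 0.888 thus combines changes in opposite directions.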
